A study of Mus musculus with 6 samples.

Results

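A set of 7 genes of Schwann cells and of the myelin they make were followed in whole tibialis anterior (TA) muscle. They served as a possible readout of how much nerve each muscle carried, which was not tested against another measure of nerve. The genes were Mbp, Pmp22, Prx, S100b, Mag, Cnp and Egr2, taken by symbol from the table of read counts, and all 7 were found among its 13226 genes. The muscles came from male C57BL/6 mice aged 8 weeks, collected 7 days after AAV6 vectors were injected into the muscle. AAV6 is an adeno-associated virus used to carry genes into muscle fibres, and these vectors were built on plasmids with the CMV promoter, which is not restricted to a cell type. Of the 6 muscles, 3 received AAV6:Yap-shRNA, a short hairpin RNA against Yap, and 3 received the control. By the sample titles this control was an empty vector, but AAV6:LacZ-shRNA is given by the vector field and the design text. Both groups were injected, so no uninjected muscle stands as a baseline. The contralateral TA served as the control in 3 animals, but the replicate numbers are not stated to be animals.

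Myelin is the stack of Schwann cell membrane wrapped around the larger motor and sensory axons of a peripheral nerve. A muscle holds the end branches of its nerve, so the Schwann cells contribute a small share of the RNA of a whole muscle, beside fibres, fibroblasts, vessels and tendon. Myelin transcripts such as Mbp are abundant in these cells and scarce in muscle fibres, which lets them mark nerve in a muscle extract, and their levels are known to drop when an axon is lost. In whole muscle, fewer Schwann cells and less RNA per Schwann cell cannot be told apart.

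The 6 libraries held 11987167 to 12710393 counts. Yap1, the gene targeted, stood at 71.2, 65.3 and 68.4 CPM (reads as a share of the library, scaled by TMM) in control muscles and at 32.0, 23.9 and 39.5 CPM in Yap-shRNA muscles. All 8 muscle fibre genes looked for were measured, and their summed level was 127758 to 154736 CPM in each muscle. Control 1 and Yap-shRNA 3 stood apart from the other 4 muscles in 8 tendon genes, whose summed level was 712 and 584 CPM in these muscles and 132 to 186 CPM in the others. The 4 oligodendrocyte genes looked for were not among the genes analysed here.

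Promoter sequence is shown because Yap acts on genes through TEAD factors, whose core site is GGAATG. SOX10 and EGR2, the factors that drive myelin genes in Schwann cells, belong to families that bind ACAAAG or ACAATG and GTGGGCG. The 250 bases before the start site were taken from RefSeq (GRCm38.p6) for 6 of the 7 members, and positions are counted from this RefSeq start. In Cnp and Mag it differs by 35 and 31 bases from the start of the principal GENCODE transcript. The end of the Cnp window therefore lies inside the gene span given below. On either strand, GGAATG was found in the windows of Pmp22, Prx and Cnp, and in 12.6% of all 32851 promoter windows of this length. ACAAAG was found in those of Mag and Cnp, and in 16.5% of all windows. ACAATG (10.7% of all windows) and GTGGGCG (7.02%) were not found in these 6 windows, and no motif overlapped another. The windows that hold a match are shown 5′ to 3′ on the gene's strand, with the matched letters in capitals, where CATTCC is GGAATG and CTTTGT is ACAAAG read from the other strand. The TEAD hexamer begins 173 bases before the start in Pmp22 (chr11:63128732-63128981, plus strand), 37 bases before it in Prx (chr7:27499074-27499323, plus strand) and 65 bases before it in Cnp (chr11:100574689-100574938, plus strand). The SOX hexamer begins 167 bases before the start in Cnp and 126 bases before it in Mag (chr7:30914864-30915113, minus strand). A match describes letters and does not show that a factor binds.
Pmp22: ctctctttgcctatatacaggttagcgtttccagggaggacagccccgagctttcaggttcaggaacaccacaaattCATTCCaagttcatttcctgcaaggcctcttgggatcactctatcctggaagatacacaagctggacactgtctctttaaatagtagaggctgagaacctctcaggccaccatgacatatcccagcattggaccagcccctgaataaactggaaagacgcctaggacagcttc
Prx: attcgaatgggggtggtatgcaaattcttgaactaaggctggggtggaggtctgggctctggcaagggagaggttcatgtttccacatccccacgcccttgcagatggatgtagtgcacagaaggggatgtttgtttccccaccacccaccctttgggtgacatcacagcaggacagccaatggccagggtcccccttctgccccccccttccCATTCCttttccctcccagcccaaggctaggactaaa
Cnp: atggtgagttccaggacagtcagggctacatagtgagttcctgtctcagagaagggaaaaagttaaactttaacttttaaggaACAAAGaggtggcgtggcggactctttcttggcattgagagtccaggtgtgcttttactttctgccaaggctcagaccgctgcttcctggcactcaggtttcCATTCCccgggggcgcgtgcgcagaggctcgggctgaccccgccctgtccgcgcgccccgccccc
Mag: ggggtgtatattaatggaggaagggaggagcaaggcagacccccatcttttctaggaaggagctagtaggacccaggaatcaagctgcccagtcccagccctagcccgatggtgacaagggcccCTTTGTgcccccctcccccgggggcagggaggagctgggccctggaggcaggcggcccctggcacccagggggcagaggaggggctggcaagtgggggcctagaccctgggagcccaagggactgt

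No member passed the test for a difference between Yap-shRNA and control muscles. Of the 7 members, 0 reached a Benjamini-Hochberg adjusted p under 0.05 in edgeR's quasi-likelihood fit, where 0 of the 13113 genes tested (0%) did. Yap1 itself, at 46.5% of its control level (log2 fold change -1.10, standard error 0.16), was not called in this fit (adjusted p = 0.32). A fall of that size could thus go uncalled in this fit. At an unadjusted p under 0.05 the members again gave 0, against 211 of all genes tested (1.61%). DESeq2 and edgeR's likelihood ratio test each called 5 genes (0.0381%), none of which was a member or on the nerve lists described below. In 0 members did all 3 Yap-shRNA muscles lie above all 3 control muscles (2.54% of all genes tested), and in 0 did they all lie below (2.73%). The median log2 fold change of the members was 0.04, and that of all genes tested was -0.0025. In the quasi-likelihood fit of edgeR the adjusted p of every member was 1.00, which does not show that the groups were equal, and the 95% interval of each fold change is therefore given with its values.

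Pmp22 and Mbp are parts of compact myelin. Pmp22 is a membrane protein whose gene dosage is altered in inherited neuropathy, and it is also made outside Schwann cells, in fibroblasts among others. Pmp22 (ENSMUSG00000018217, chr11:63128982-63159547, plus strand, GRCm38) had the most reads of the 7. It stood at 36.1, 48.9 and 38.2 CPM in control muscles and at 41.4, 44.5 and 43.4 CPM in Yap-shRNA muscles. The Yap-shRNA muscles lay close together and inside the control range. Its mean was 41.0 ± 6.85 CPM in control and 43.1 ± 1.54 CPM in Yap-shRNA muscles (SD, n = 3 each), with a log2 fold change of 0.07 (standard error 0.12, 95% interval -0.21 to 0.35, or 86.6 to 127% of control). Mbp (ENSMUSG00000041607) encodes the basic protein that holds the inner faces of the membrane together. Its levels were 17.0, 30.2 and 23.8 CPM in control muscles and 22.5, 28.4 and 21.8 CPM in Yap-shRNA muscles. Control 1 was the lowest muscle and control 2 the highest, with all 3 Yap-shRNA muscles between them. The log2 fold change of Mbp was 0.04 (standard error 0.20, 95% interval -0.40 to 0.48, or 75.7 to 139% of control).

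Prx encodes periaxin, a scaffold on the outer, abaxonal membrane of the myelinating Schwann cell that is required for stable myelin. Prx (ENSMUSG00000053198, chr7:27499324-27520214, plus strand) stood at 7.47, 10.5 and 11.6 CPM in control muscles and at 9.06, 10.4 and 9.33 CPM in Yap-shRNA muscles. Here too control 1 was lowest, but control 3 was the highest. The log2 fold change was -0.03 (standard error 0.18, 95% interval -0.44 to 0.38, or 73.6 to 130% of control).

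Mag and Cnp belong to the parts of the sheath that are not compacted. Cnp encodes the phosphodiesterase that keeps cytoplasmic channels open between the membrane layers. Cnp (ENSMUSG00000006782, chr11:100574904-100591729, plus strand) was measured at 11.9, 15.5 and 15.2 CPM in control muscles and at 13.3, 13.1 and 11.9 CPM in Yap-shRNA muscles. Control 2 and control 3 exceeded the 3 Yap-shRNA muscles, while control 1 was level with the lowest of them. The log2 fold change of Cnp was -0.15 (standard error 0.14, 95% interval -0.47 to 0.17, or 72.0 to 112% of control). Mag encodes the adhesion protein that faces the axon on the innermost, periaxonal membrane. Mag (ENSMUSG00000036634, chr7:30899176-30914873, minus strand) had 8, 17 and 12 reads in control muscles against 11, 8 and 9 in Yap-shRNA muscles, or 0.622, 1.42 and 0.985 CPM against 0.923, 0.615 and 0.718 CPM. Control 2 was again the highest, and the lowest muscles were Yap-shRNA 2 and control 1. The log2 fold change of Mag, the furthest from 0 among the members, was -0.42 (standard error 0.41, 95% interval -1.33 to 0.49, or 39.8 to 140% of control). At this depth a fall of Mag to 39.8% of control could not be told from no change.

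S100b encodes a calcium-binding protein long used to stain Schwann cells, whether or not they make myelin. S100b (ENSMUSG00000033208, chr10:76253853-76261159, plus strand) had 13, 23 and 19 reads in control muscles against 24, 25 and 13 in Yap-shRNA muscles, or 1.01, 1.92 and 1.56 CPM against 2.01, 1.92 and 1.04 CPM. The low muscles were control 1 and Yap-shRNA 3, the muscles with high tendon transcripts, and the part of tendon tissue in this was not tested. Its log2 fold change was 0.15 (standard error 0.36, 95% interval -0.65 to 0.95, or 63.8 to 193% of control). Egr2 encodes the zinc finger factor that switches Schwann cells to making myelin, and outside nerve it is an early response gene of many cell types. Egr2 (ENSMUSG00000037868, chr10:67535475-67542188, plus strand) had 14, 13 and 6 reads in control muscles against 8, 16 and 16 in Yap-shRNA muscles, or 1.09, 1.09 and 0.49 CPM against 0.67, 1.23 and 1.28 CPM. The order of the muscles was unlike that of the structural genes, since control 1 was not low and Yap-shRNA 3 was the highest. The log2 fold change of Egr2 was 0.25 (standard error 0.41, 95% interval -0.68 to 1.18, or 62.5 to 227% of control).

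**Figure D1:**
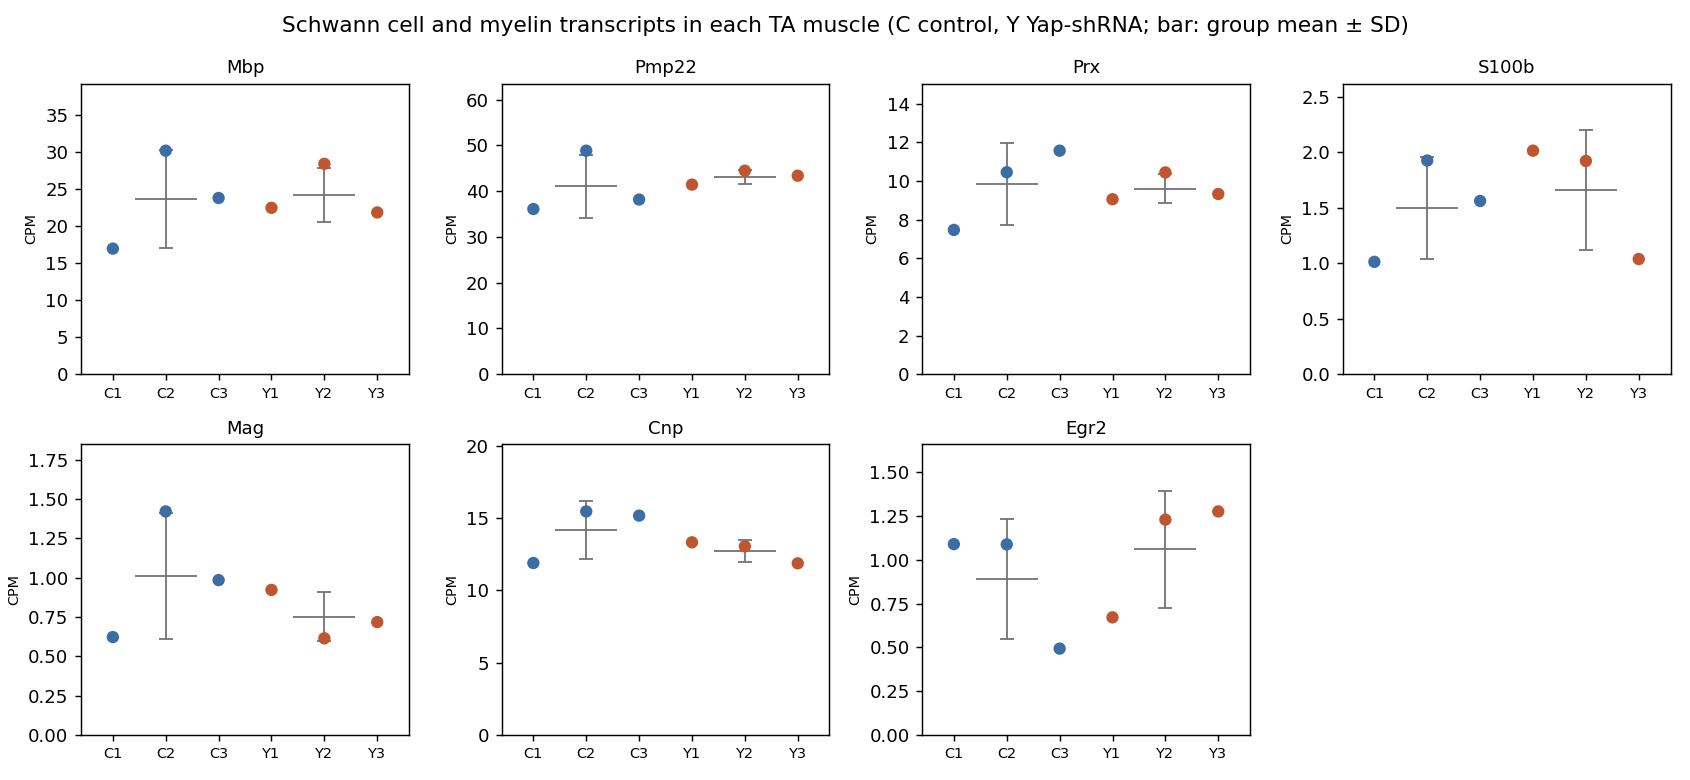
CPM of the 7 members in each TA muscle (C1 to C3 control, Y1 to Y3 Yap-shRNA; grey bars, group mean ± SD, n = 3), each panel on its own linear axis from 0. In every panel the control and Yap-shRNA muscles overlap, and Mbp runs from 17.0 CPM in C1 to 30.2 CPM in C2.

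Levels of different genes were compared per kilobase of annotated exon. In control muscles Pmp22 stood at 17.4 ± 2.91 CPM per kilobase, Cnp at 3.90 ± 0.55, Mbp at 2.79 ± 0.78, Prx at 1.76 ± 0.38 and S100b at 1.01 ± 0.31 (SD, n = 3). Egr2 and Mag were the lowest, at 0.26 ± 0.10 and 0.25 ± 0.098 CPM per kilobase. Over the 6 muscles the range of Pmp22 (15.3 to 20.8) lay above that of every other member. Cnp (3.27 to 4.25) and Mbp (2.00 to 3.57) overlapped, as did Egr2 (0.14 to 0.38) and Mag (0.15 to 0.35), so the order within each of these pairs is not settled by these muscles. Prx (1.34 to 2.07) met Mbp above and S100b (0.68 to 1.36) below only at the edges of their ranges. The exon length of Mbp, 8469 bases, covers all 16 annotated transcripts of a locus with alternative starts, so its level per kilobase is a low estimate for the myelin forms.

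The spread between muscles was set against the spread that counting reads alone would give. For Mbp the variance over the 6 muscles was 12.0 times the counting variance, and for Pmp22 6.17 times, against a median of 2.47 times over all genes tested. Prx followed at 2.63 times, so 3 of the 7 members exceeded the all-gene median. At a given relative spread this ratio grows with read number, and the all-gene median was not matched for it. Cnp (2.22 times), S100b (1.66), Mag (1.32) and Egr2 (1.27) varied less relative to counting error, and the last 3 were measured on 6 to 25 reads per muscle. The 8 reads of Mag in control 1, for instance, have a 95% exact Poisson interval of 3.45 to 15.8, which covers counting error only. Mbp reached 1.78 times its lowest level in its highest muscle and Pmp22 1.35 times, whereas the larger ratios of Mag (2.31) and Egr2 (2.59) came from these low counts. Mbp and Pmp22 were thus the members whose spread stood furthest above counting error.

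**Figure D2:**
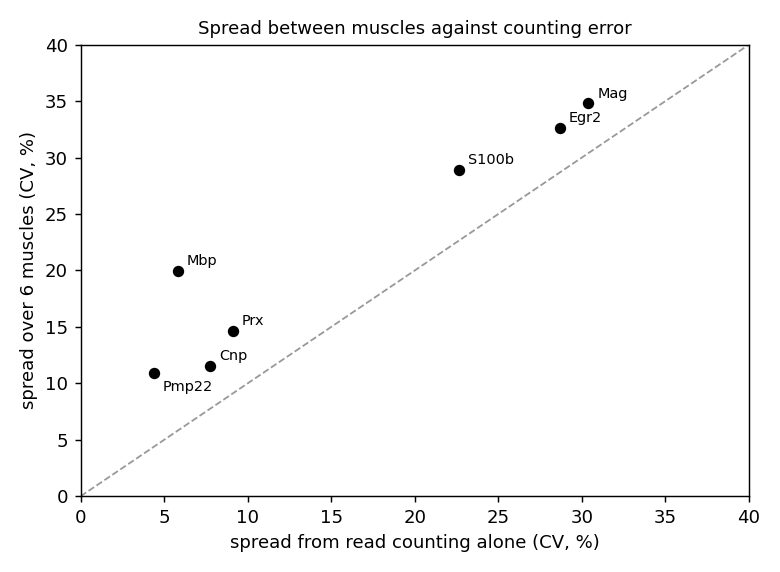
Coefficient of variation over the 6 muscles (vertical, %) against that expected from read counting alone (horizontal, %), for the 7 members, with a dashed line at equality. Mbp (20.0% against 5.80%) lies far above the line, and Mag (34.8% against 30.4%) and Egr2 lie near it.

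A nerve index was computed for each muscle as the mean, over the 7 members, of the log2 CPM minus that member's mean over the 6 muscles, so that 0 is the average muscle. Control 2 had the highest index, at 0.29 or 123% of the average, and all 7 members were above their own mean there. In control 2, 4 members had their highest level and 0 their lowest. Control 1 had the lowest index, at -0.27 or 82.8% of the average, with 1 of 7 members above its mean, Egr2, and 4 members at their lowest. The remaining muscles lay between these. Control 3 stood at -0.03 (98.0% of the average, 5 of 7 members above their mean). Yap-shRNA 1 stood at -0.01 (99.1%, 2 of 7), Yap-shRNA 2 at 0.10 (107%, 5 of 7) and Yap-shRNA 3 at -0.08 (94.5%, 2 of 7). On this scale the widest gap was between control muscles. Taken relative to the 8 muscle fibre genes of the same muscle instead, the index was highest in Yap-shRNA 2 (0.26), above control 2 (0.15), and still lowest in control 1 (-0.17), so that the widest gap then lay between the groups. Control 3 stood at -0.10, Yap-shRNA 1 at -0.0081 and Yap-shRNA 3 at -0.13 on that scale, and the group difference was 0.078. The index averaged -0.0024 ± 0.28 in control and 0.0024 ± 0.092 in Yap-shRNA muscles (SD, n = 3 each), a difference of 0.0048, and no p was computed because the members were chosen with results of these data known. Without control 1 the difference was -0.13, and without control 2 it was 0.15. The index of Mbp, Prx and Mag alone, the members most restricted to myelinating cells, kept control 1 lowest (-0.40) and control 2 highest (0.37), with control 3 at 0.15 and the Yap-shRNA muscles at -0.02, 0.0023 and -0.12.

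Other cell types were measured beside the index. The muscles with high tendon transcripts, control 1 and Yap-shRNA 3, had the lowest index, and they also had the highest summed level of 6 fibroblast genes (1997 and 2281 CPM, against 1033 to 1229 CPM in the others). The summed level of 10 macrophage genes was highest in control 1 (238 CPM) and lowest in control 3 (100.4 CPM), with 148 CPM in control 2 and 172 to 222 CPM in the Yap-shRNA muscles, which is not the order of the index. Transcript properties differed in the muscles at both ends of the index. Across 9273 genes, the deviation of control 1 from the average muscle had a correlation of 0.36 with log transcript length and of -0.19 with GC content, and that of control 2 had -0.40 and 0.18 (genes are not independent replicates). In the other 4 muscles these correlations lay between -0.08 and 0.11. With smooth trends on GC content and length removed from every muscle, an alternative chosen after seeing the data, control 1 moved to -0.21 and control 2 to 0.23, still the lowest and the highest, and the range over the 6 muscles narrowed from 0.57 to 0.44. The median correlation of log2 CPM with the index was 0.58 for the 8 muscle fibre genes and 0.33 for 11 myelin genes outside the members. For 8 endothelial genes it was -0.45. Of these, 2 were at 0.7 or above (16.5% of all genes tested) and 3 at -0.7 or below (14.9%). For the nerve lists described below, the median r with the index was -0.62 for 5 axon genes and -0.46 for 7 non-myelinating Schwann cell genes. It was -0.29 for 13 Schwann cell regulators and 0.29 for 4 perineurial genes. The part of tendon, fibroblasts, macrophages, fibres or vessels in the index was not tested, and neither was whether the index measures nerve content.

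**Figure D3:**
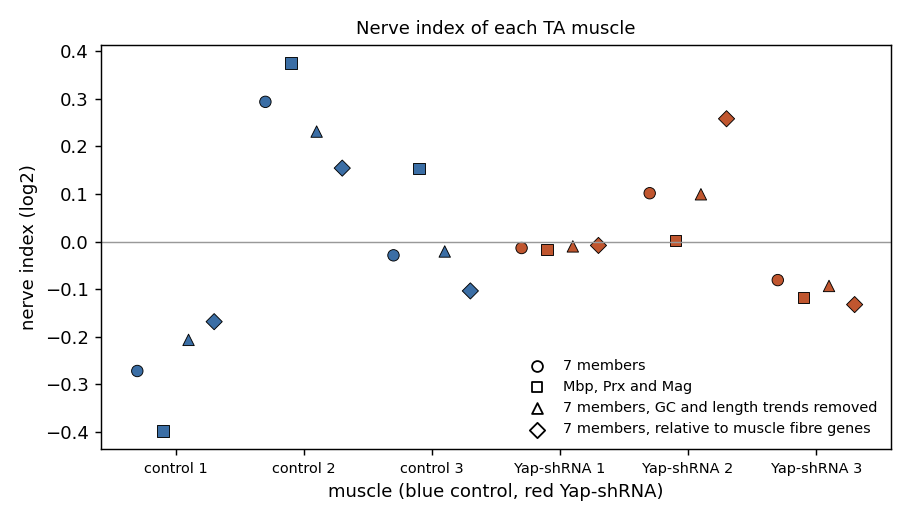
Nerve index of each TA muscle (log2, 0 is the 6-muscle average; blue control, red Yap-shRNA) over the 7 members (circles), over Mbp, Prx and Mag (squares) and over the 7 members after GC and length trends were removed (triangles) and relative to the muscle fibre genes (diamonds). Control 1 is lowest by all 4 measures and control 2 highest by 3 of them (-0.27 and 0.29 over the 7 members), while relative to fibre genes Yap-shRNA 2 is highest (0.26).

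The members did not vary as a single block. Over the 6 muscles, which share a sequencing series and may share animals, the median Pearson r of log2 CPM over the 21 pairs of members was 0.51. Mbp was most like the rest, with r = 0.94 and Spearman's rho = 0.94 against the mean of the other 6 members. Without control 1 and control 2, the muscles farthest from the median, its r over the remaining 4 muscles was 0.90. Pmp22 had r = 0.86 (rho = 0.77), which fell to 0.22 without these muscles. The values of Cnp (r = 0.65), Prx (0.59) and S100b (0.58) also rested on control 1 and control 2, since without them r was -0.12, -0.02 and 0.0051. Mag had r = 0.49, and 0.78 without its own farthest muscles, control 2 and Yap-shRNA 2. Egr2 went the other way, with r = -0.26 and a median r of -0.34 with the single members. Leaving Egr2 out, the 15 pairs had a median r of 0.58 and none was below 0.36. Without control 1 and control 2, the median over the 21 pairs was 0.13.

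Myelin genes outside the 7 were described from a list of 18, of which 12 were measured and 11 tested. None passed the quasi-likelihood test, and their log2 fold changes ran from -0.43 to 0.13 with a median of -0.10. None had groups that did not overlap, where 2.54% of all genes tested lay higher in this way and 2.73% lower. Mal, a lipid raft protein of myelin membranes, stood at 2.57, 3.68 and 2.87 CPM in control muscles and at 2.68, 3.30 and 2.15 CPM in Yap-shRNA muscles. With the nerve index Mal had r = 0.79 and rho = 0.89 (n = 6), and r = 0.91 without control 1 and control 2. Ncmap, a myelin membrane protein, had r = 0.73, which fell to 0.13 without these muscles. In all, 4 of the 11 genes reached r of 0.7 or more, as did 16.5% of all genes tested. Gjc3, a connexin of myelinating glia, ran the other way, with r = -0.78, and 14.9% of all genes were at -0.7 or below. Drp2, which binds periaxin at the outer membrane, differed little between muscles (5.61 to 6.54 CPM, r = -0.11), at a variance of 0.33 times the counting variance.

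Regulators of Schwann cells were listed separately. Of 16 listed, 13 were measured and tested and 0 passed the test, with a median log2 fold change of 0.14 and a median r with the index of -0.29, against 0.33 for the structural list, a difference that was not tested. Sox10, the factor that keeps Schwann cell identity, stood at 2.41, 4.18 and 2.63 CPM in control muscles and 2.60, 3.07 and 3.35 CPM in Yap-shRNA muscles. Control 1 was its lowest and control 2 its highest muscle, and its r of 0.81 with the index became -0.05 without them. Nab1, a corepressor that works with EGR2, had r = -0.73. The neuregulin receptors Erbb2 and Erbb3, also made by other cells, had log2 fold changes of 0.08 and 0.01 and r of -0.35 and -0.53. Lgi4, a secreted factor that axon-associated glia need, was the only one of the 13 whose groups did not overlap (2.54% of all genes tested had all 3 Yap-shRNA muscles higher), at 0.778, 0.753 and 0.575 CPM in control muscles and 1.17, 0.999 and 1.04 CPM in Yap-shRNA muscles. Its log2 fold change was 0.60 (standard error 0.33) and its adjusted p in the edgeR fit was 1.00. The levels of Lgi4 rested on 10, 9 and 7 reads in control muscles and on 14, 13 and 13 in Yap-shRNA muscles.

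Genes of non-myelinating Schwann cells, which ensheathe thin axons and cap the nerve terminal, were measured for 7 of 10 listed. None passed the test, and their median log2 fold change was -0.10 and their median r with the index -0.46. Of the 7, Cdh19 and Art3 had all 3 Yap-shRNA muscles below all 3 control muscles, as did 2.73% of all genes tested. Cdh19, an adhesion gene of the Schwann cell lineage, stood at 1.40, 1.17 and 1.31 CPM in control muscles and at 1.01, 0.15 and 0.88 CPM in Yap-shRNA muscles (log2 fold change -0.94, standard error 0.50, adjusted p = 1.00 in the edgeR fit). The levels of Cdh19 rested on 18, 14 and 16 reads in control muscles and on 12, 2 and 11 in Yap-shRNA muscles. Art3, at 166 to 211 CPM per muscle, is also expressed by muscle fibres, so it marks nerve poorly in this tissue. Ncam1, which denervated and regenerating fibres also make, had r = -0.89 with the index. Its levels of 9.80, 4.85 and 6.98 CPM in control muscles and 8.05, 5.22 and 9.97 CPM in Yap-shRNA muscles were high where tendon transcripts were high. Of the 8 repair genes that Schwann cells switch on after injury, Jun and Gdnf were measured. Jun, which many cells make, stood at 63.6 to 71.7 CPM in control and 70.2 to 72.0 CPM in Yap-shRNA muscles, and Gdnf at 0.84 to 1.09 and 0.54 to 0.92 CPM.

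The sheath and axons of the nerve were covered less well. Perineurial genes, from the cell layer that encloses a fascicle, gave 4 of 5 measured and a median log2 fold change of 0.14. Slc2a1, the glucose transporter of the perineurial barrier and of many other cells, stood at 7.55, 6.86 and 8.70 CPM in control muscles, and all 3 Yap-shRNA muscles lay above these, the lowest of them at 9.14 CPM. It was the only one of the 4 with groups that did not overlap, where 2.54% of all genes tested lay higher in this way. Its log2 fold change was 0.36 (standard error 0.16, unadjusted p = 0.048 and adjusted p = 1.00 in the edgeR fit). Claudin 1 (Cldn1) and integrin beta 4 (Itgb4), more typical of this layer, had log2 fold changes of 0.29 and -0.0071 with overlapping groups. The messenger RNA of a motor neuron lies mostly in its cell body in the spinal cord. Of 13 axon genes 5 were measured, and 0 passed the test. Stmn2, a tubulin regulator of growing axons, stood at 3.58, 4.68 and 3.04 CPM in control muscles and at 4.61, 4.30 and 3.43 CPM in Yap-shRNA muscles. Uchl1 varied most of the 5, from 1.25 CPM in control 2 to 6.30 CPM in Yap-shRNA 3. Uchl1 (r = -0.72 with the index), Thy1 (-0.67) and Prph (-0.62) ran against the index, while Stmn2 had r = 0.61 and Sncg -0.05.

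**Figure D4:**
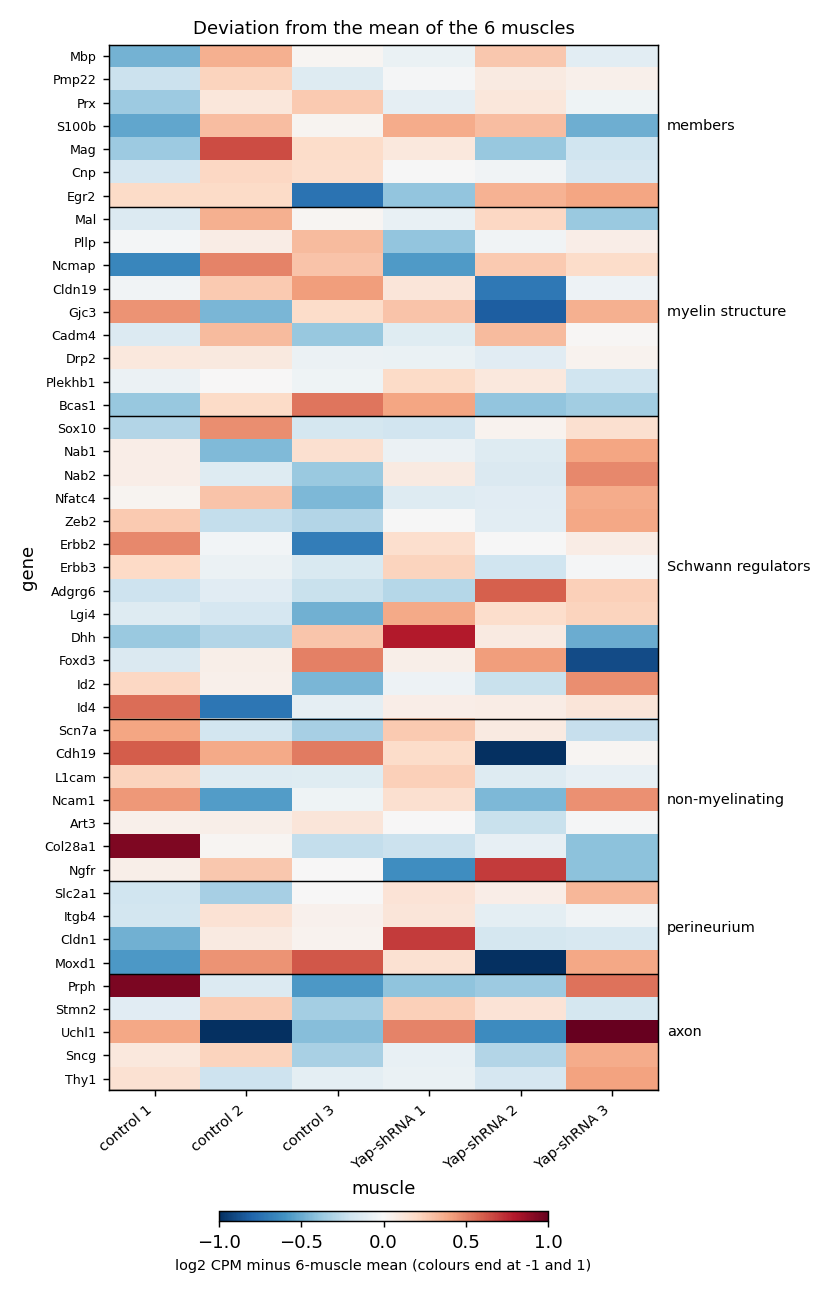
Deviation of log2 CPM from the 6-muscle mean (colour, ending at -1 and 1) for the members and other measured nerve genes (rows, by list) in each muscle (columns). Mbp, Pmp22 and Ncmap are lowest in control 1 and highest in control 2, and Mal is lowest in Yap-shRNA 3 and highest in control 2. Other myelin genes differ, such as Gjc3 (r = -0.78 with the index) and Drp2 (-0.11). Of the axon list, Uchl1, Thy1 and Prph run against the index (r of -0.72, -0.67 and -0.62), while Stmn2 has r = 0.61 and Sncg -0.05.

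Fibres that lose their nerve raise many genes, and 14 of 14 genes listed for this response were measured as a readout on the fibre side. The list also holds Chrne, the adult subunit of the acetylcholine receptor, which is not one of the genes raised in this way. None passed the quasi-likelihood test, and their log2 fold changes ran from -0.58 to 1.10 with a median of 0.31. In 1 gene, Hdac4 (log2 fold change 0.13), all 3 Yap-shRNA muscles lay above all 3 control muscles (2.54% of all genes tested). In 1 gene, Chrne (-0.25), they all lay below (2.73%). Gadd45a, a stress gene that rises in denervated fibres, gave the single unadjusted p under 0.05 (0.017 in the edgeR fit). Of all genes tested, 1.61% had such a p in this fit. Gadd45a stood at 16.6, 18.1 and 15.4 CPM in control muscles and at 28.9, 17.1 and 26.1 CPM in Yap-shRNA muscles, with a log2 fold change of 0.52 (standard error 0.18) and an adjusted p of 1.00 in the edgeR fit. Yap-shRNA 2, which had the highest nerve index of its group, was the muscle of this group whose Gadd45a level fell inside the control range. Among control muscles Gadd45a was instead highest in control 2, the muscle of highest index, and over all muscles its r with the index was -0.05. Chrng, the fetal subunit of the acetylcholine receptor, had the same order as Gadd45a among the Yap-shRNA muscles. It stood at 1.71, 0.33 and 0.49 CPM in control muscles and 2.85, 0.15 and 2.39 CPM in Yap-shRNA muscles. Chrna1 stood at 22.3, 16.5 and 16.9 CPM in control muscles and 35.7, 12.1 and 31.1 CPM in Yap-shRNA muscles, so its groups overlapped too. Myog, the factor that relays the loss of nerve activity to receptor genes, had a log2 fold change of -0.33 (standard error 0.32) and was highest in control 1 (9.57 CPM). The median r of the 14 genes with the nerve index was -0.46.

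**Figure D5:**
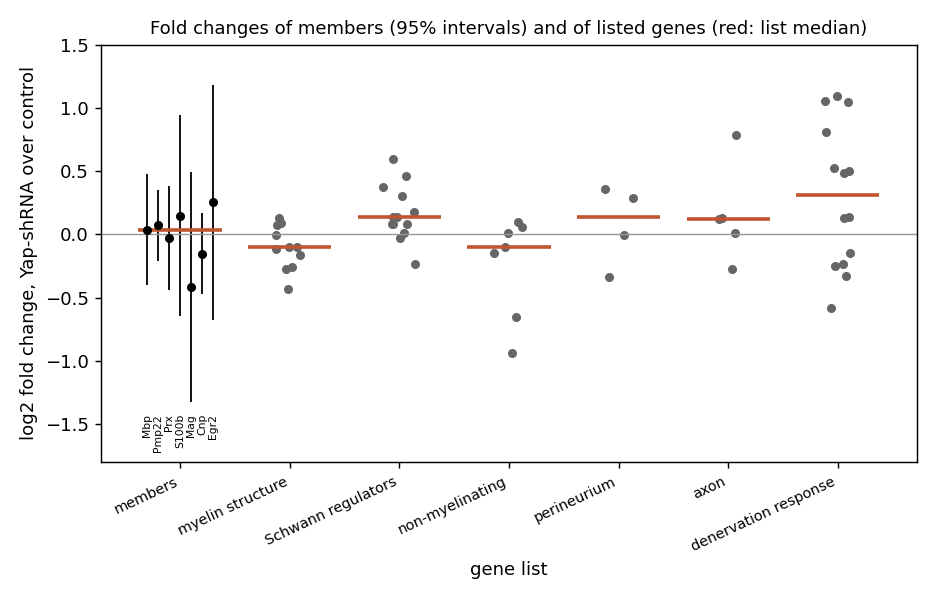
Log2 fold change of Yap-shRNA over control for each member (black, named, with 95% intervals) and for each tested gene of the nerve and denervation lists (grey), with each list's median in red. All 7 member intervals cross 0, the member median is 0.04 and the denervation median is 0.31.

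The genes whose levels were most like the nerve index were looked for among the 867 genes with a mean of at least 5 CPM and an SD of at least 0.3 on the log2 scale. The 15 most like it had r of 0.96 to 0.99 (n = 6 muscles). The closest were Slc25a39 (r = 0.99), Fbxo6 (0.99), Nr2f6 (0.99), Timp4 (0.98), Leng1 (0.97) and Josd2 (0.97), and the next included 1810043H04Rik, Gm17257, Nudt8, Gm16124, Adck3, Frat1, Wrap53 and Gadd45gip1. Slc25a39, a mitochondrial carrier gene, went from 60.1 CPM in control 1 to 115 CPM in control 2. The 15 had a median GC content of 55.4% and a median transcript length of 2002 bases, against 50.4% and 2898 bases over all genes tested, and 13 of the 15 were above the all-gene GC median. The members had similar medians, 55.8% and 2357 bases. After the trends on GC and length were removed, 7 of the 15 genes stayed among the 15 most alike, Adck3 and Timp4 among them. Adck3 had the highest r with Mbp (0.99), and the next were Leng1 and Hs3st5 (0.98 each). The genes most like single members shared no name between members. They were Abhd8, Lrg1 and Adamtsl5 for Pmp22 (r of 0.94 to 0.95), P2ry1, Rbp4 and Kbtbd13 for Prx (0.93 to 0.97), and Gm14017, Sdhaf1 and Clec2d for Cnp (0.93 to 0.96). For the members of low counts they were Hspe1, Gm14127 and BB218582 for S100b (0.95 to 0.98), Etfb, A930005H10Rik and Sfrp5 for Mag (0.89 to 0.94), and Cyba, Tubb2a and Ccl9 for Egr2 (0.93 to 0.94). Cyba and Ccl9 are genes of myeloid cells. Egr2 was measured on 6 to 16 reads per muscle, and a part of myeloid cells in its level was not tested.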

How the data were processed

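Polyadenylated RNA of 6 whole TA muscles, 3 control and 3 Yap-shRNA, was sequenced. The values the authors deposited are raw counts of reads on each gene. The submitters' processing notes name bcl2fastq 2.20.0.422 and GRCm38. The aligner and counter of this series are not given in the sources used here. The lowest row total in the table was 60 reads over 6 libraries, so rarer genes had already been removed, and the strand setting was not stated, so overlapping genes are uncertain. All columns were matched to samples by name.

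After TMM scaling, the groups were compared in edgeR 4.0.16 (R 4.3.3) by a quasi-likelihood fit with no term besides group, with Benjamini-Hochberg adjustment over the 13113 genes left by filterByExpr (minimum count 10) and a threshold of 0.05. The fit used a biological coefficient of variation of 15.1%. Standard errors were obtained from each fold change and its F statistic, and 95% intervals from the t distribution. Log2 CPM for the index and for correlations used a prior count of 2. Chi-square over its degrees of freedom was 7.72 to 21.7 between libraries of the same group, so no library was counted as a repeat. The p-values set the difference between groups against the spread between muscles within a group, with the 6 muscles treated as independent. They take no account of muscles that may share an animal. GENCODE M21 on GRCm38 held 13199 of the 13226 gene IDs. On simulated counts the quasi-likelihood test recovered 181 of 200 changed genes among 13113, with 11 false calls. The changes simulated were all larger than the fold change of any member or of Yap1. This recovery therefore does not tell how often changes of the members' size would be found.

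The members and lists were chosen with earlier results of these data known. The genes named were the 7 members, Yap1, genes of the lists, the 15 genes most like the nerve index and the 3 most like each member, and some genes that this rule covers are not reported here. Alternatives were DESeq2 1.42.0, the likelihood ratio test, limma-voom (limma 3.58.1), other normalisations, filters and indices, a replicate block and leaving out muscles. The removal of GC and length trends (splines with 4 degrees of freedom) and leaving out the muscles of high tendon transcripts were added after seeing the data.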

Additional observations from a re-analysis of the deposited data

How the results depend on the processing

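No member passed the threshold under any of the settings run, and the lowest adjusted p of a member over all of them was 0.708 (edgeR's quasi-likelihood test, without control 1, Cnp). Of 103 member fold changes under alternatives, 92 kept their direction and 11 changed sign. Leaving out a muscle moved the log2 fold change of Mbp between -0.15 and 0.25, of Pmp22 between -0.013 and 0.22, of Prx between -0.20 and 0.10, of S100b between -0.072 and 0.39, of Mag between -0.68 and -0.096, of Cnp between -0.26 and -0.085 and of Egr2 between -0.033 and 0.49. Without the muscles of high tendon transcripts, control 1 and Yap-shRNA 3, Mbp was at -0.084 and Pmp22 at -0.018. The cause of these changes of sign was not tested.

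Over all genes, 0 were called by the quasi-likelihood test, 5 by DESeq2, 5 by the likelihood ratio test, and 0 to 2 when a muscle was left out (2 without control 1, 1 without Yap-shRNA 3). Without both muscles of high tendon transcripts 4 were called. The index difference lay between -0.087 and 0.078 over other ways of computing it, and between -0.13 and 0.15 when a muscle was left out. By Spearman's rho 5 of the 15 genes most like the index were shared, and 7 after the GC and length trends were removed. A count minimum of 10 in every muscle gave no value for Mag and Egr2.

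The replicate numbers were not taken as pairs, because they are not stated to be animals. Deviations of same-numbered muscles had correlations of -0.06, 0.33 and -0.36 over 9285 genes, which cannot show whether these muscles share an animal. With the replicate block, 0 genes and 0 members were called, with log2 fold changes of 0.06 for Mbp, 0.08 for Pmp22, -0.02 for Prx, 0.14 for S100b, -0.40 for Mag, -0.15 for Cnp and 0.25 for Egr2, and the index difference was 0.0048 ± 0.23 (SD of 3 differences). S100b, Mag and Egr2, at 6 to 25 reads per muscle, were limited by depth.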
